A study of Danio rerio with 45 samples.

Results

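The Hox genes are the 49 zebrafish genes whose symbols in the gene table have 1 of 4 cluster letters, a paralogue number from 1 to 13 and a final a or b. Of these, 47 had at least 1 probe on the array, and no probe was matched to hoxc10a or hoxc11b. They were represented by 116 of the 43603 probes, with 1 to 5 probes for each gene and 8 genes on a single probe. The genes lie in 7 clusters, and the number on the array was 7 in hoxaa, 5 in hoxab, 11 in hoxba, 4 in hoxbb, 10 in hoxca, 3 in hoxcb and 7 in hoxda.

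Hox genes encode homeodomain transcription factors that give cells their position along the head-to-tail axis. Genes with the same number in different clusters are paralogues, and low numbers stand for genes used in the hindbrain and front of the trunk while high numbers stand for genes used in the tail and paired fins. In vertebrate embryos the low-numbered genes are generally switched on before the high-numbered genes, an order known as temporal collinearity, and the repressed clusters are classical targets of Polycomb proteins. The Dnmt3 enzymes add methyl groups to unmethylated cytosines of DNA.

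Each of the 45 one-colour oligonucleotide arrays carried Cy3-labelled RNA of 1 pool of 20 whole embryos. There were 3 genotypes, namely dnmt3aa-/- (maternal-zygotic mutants by the study's methods, hence MZdnmt3aa-/-), dnmt3bb.2-/- and wild-type (WT), each with 3 biological replicates at 5 stages, which were the 1-2 cell stage, shield, the 5-somite stage, and 1 and 2 days postfertilization (dpf). The strain, the mutant alleles and the parentage of the dnmt3bb.2-/- embryos were not given in the sources used here. Pooled embryos give 1 value for a whole animal, so a change in every cell, a change in a few cells and a change in the number of Hox-expressing cells cannot be told apart.

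On the arrays labelled MZdnmt3aa-/- the probe of dnmt3aa was higher than on WT arrays at all 5 stages, by 0.54 to 0.95 on the log2 scale, and whether it lies in the mutated part is not known here. Its adjusted p from limma lay between 0.000355 and 0.0123. The values of this probe do not show a loss of the dnmt3aa transcript, and these arrays are therefore named by their label throughout. The probe of dnmt3bb.2 was lower on dnmt3bb.2-/- arrays at all 5 stages, by 0.80 to 2.68. The share of probes that the scanning software called well above background lay between 63.88% and 82.43% on the arrays labelled MZdnmt3aa-/-, between 62.43% and 84.6% on dnmt3bb.2-/- arrays and between 65.75% and 83.36% on WT arrays, and 0 features were saturated. The arrays labelled MZdnmt3aa-/- lay on 4 slides of their own, scanned on 1 day of their own, so for that mutant genotype, scan day and slide cannot be told apart. The dnmt3bb.2-/- and WT arrays lay on 8 slides scanned on 2 days and shared a slide at every stage but 5-somite. Of the listed stage markers, 4 of 4 for 1-2 cell and 5 of 5 for shield were highest at their own stage in all 3 genotypes. The same held for 2 of 5 markers of 5-somite and 3 of 4 of 2 dpf, but 0 of the 4 markers of 1 dpf were highest there. Both mutants were compared with the same WT arrays.

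Values are log2 of signal intensities scaled to a common mean within each array, given for the probe of each gene with the highest mean signal unless another probe is named. Levels are compared between stages and genotypes of the same probe, and never between probes. Groups were compared with limma, p-values were adjusted over all probes tested, and a probe was called where the adjusted p did not exceed 0.01. No Hox probe called between a mutant and WT had overlapping values, so a lack of overlap adds nothing to a call. Where all 3 arrays of a group were not well above background, the difference is given as "at least N-fold", the mean of the brighter group against a floor set by the dimmest signals still well above background. In the gene table the transcribed regions of several neighbouring Hox genes overlap, among them hoxa3a with hoxa4a and hoxa5a, hoxb3a with hoxb4a to hoxb6a, hoxb1b with hoxb5b and hoxb6b, hoxc3a with hoxc4a to hoxc9a, and hoxd3a with hoxd4a. A probe in a shared part could read either gene, and assignments of these genes are uncertain in that respect.

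In WT embryos, 15 of the 47 genes were well above background on all 3 arrays at 1-2 cell, before the embryo transcribes its own genome in full. The genes were hoxa4a, hoxb1b, hoxb2a, hoxb7a, hoxb8a, hoxb10a, hoxb13a, hoxc11a, hoxc13a, hoxd4a, hoxd9a, hoxd10a, hoxd11a, hoxd12a and hoxd13a. Of the 7 genes of the hoxda cluster, 6 were in this group, the exception being hoxd3a. Of the 13 genes of paralogue groups 11 to 13, 6 were in it, against 4 of the 14 genes of groups 1 to 4, 2 of 12 in groups 5 to 8 and 3 of 8 in groups 9 and 10. All probes agreed for hoxb1b, hoxb2a, hoxb7a, hoxc11a, hoxd4a, hoxd9a and hoxd13a. For hoxa4a, hoxb8a, hoxb10a, hoxc13a, hoxd10a and hoxd11a, 1 probe alone was well above background on all 3 WT arrays at 1-2 cell, so their detection there rests on that probe.

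Most of this early signal was lower at shield, the start of gastrulation. The WT arrays of shield and of 1-2 cell lay on different slides, so stage and slide cannot be told apart here. Between shield and 1-2 cell in WT, 48 Hox probes were tested, 7 were higher and 28 lower at shield, 72.9% of those tested against 83.8% of all probes (background 35.8% higher and 48% lower). The mean of hoxb7a was 3.43 ± 0.34 at shield, where it was not well above background on any array, and 9.84 ± 0.10 at 1-2 cell (SD, n = 3 each), at least 43.8-fold lower (limma adjusted p = 7.26e-07). hoxd9a was 7.62 ± 0.34 at shield and 10.40 ± 0.12 at 1-2 cell, a difference of -2.78 ± 0.18 (SE, adjusted p = 3.03e-05 in limma). hoxb2a, which acts in the hindbrain, was 4.98 ± 0.14 at shield and 8.27 ± 0.12 at 1-2 cell. Setting the 75th percentile of each array equal, rather than its trimmed mean, moved the median difference over all probes to 0.067, against -0.315, and left 33 Hox probes called, 9 higher and 24 lower.

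At shield 10 genes were well above background on all 3 WT arrays. Of these, hoxc1a and hoxc6a were not so on any 1-2 cell array. The mean of hoxc1a, a group 1 gene, was 6.16 ± 0.29 at shield and 2.26 ± 0.32 at 1-2 cell (SD, n = 3 each), at least 4.29-fold higher (limma adjusted p = 1.45e-05). Its other probe was not well above background on any WT array at shield. The representative probe of hoxc6a was at 12.71 ± 0.03 at shield and 11.94 ± 0.11 at 5-somite, but its other probe was at 3.15 and not well above background on any WT array at shield. The probes of hoxc6a thus disagree at this stage, and its level there is uncertain.

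**Figure D1:**
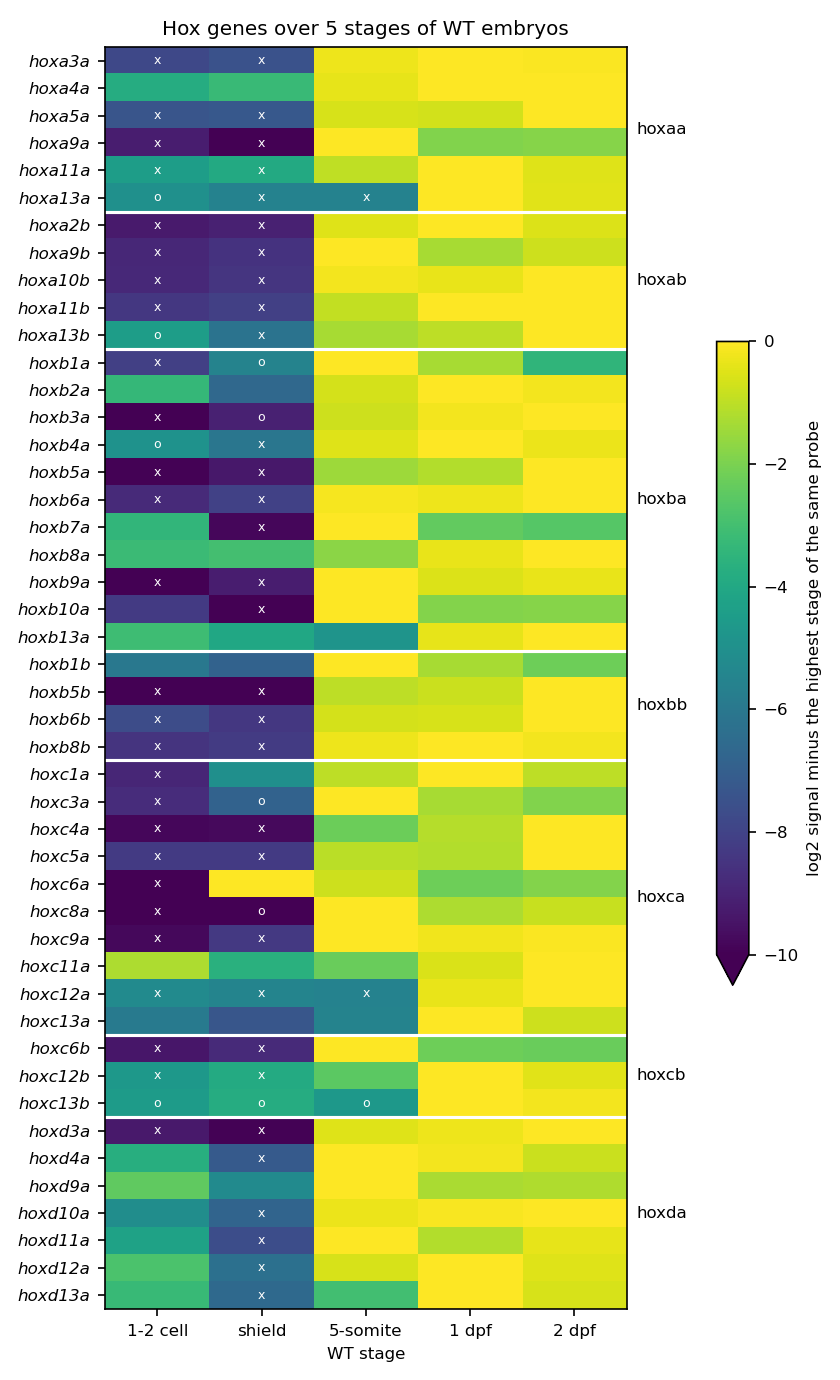
Mean log2 signal (3 WT arrays) of 46 of the 47 Hox genes, 1 probe each, as the difference to the highest stage of the same probe, with genes in rows by cluster and stages in columns. A cross marks groups with 0 arrays well above background and a circle groups with 1 or 2; all genes shown but hoxa13a, hoxc12a and hoxc13b were well above background on all 3 arrays at 5-somite, and these 3 from 1 dpf.

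By 5-somite nearly the whole family was on. Of 109 Hox probes tested between 5-somite and shield in WT, 105 were higher and 2 lower at 5-somite, 98.2% against 76.6% of all probes (44.4% higher and 32.2% lower). Of 45 genes with a tested probe, 43 had a probe that rose and 2 a probe that fell. Those that fell were hoxc6a, on the probe that was high at shield, and hoxb13a, at 5.70 ± 0.18 at 5-somite and 6.47 ± 0.08 at shield, a difference of -0.77 ± 0.11 (SE, limma adjusted p = 0.000893). In this series no stage lies between shield and 5-somite, so an order of activation within that interval was not measured. The WT arrays of these stages lay on different slides scanned on different days, so stage, slide and scan day cannot be told apart here.

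Between 5-somite and 1 dpf the paralogue groups parted. In WT, 56 Hox probes were higher and 38 lower at 1 dpf among 115 tested, 81.7% against 73.2% of all probes (37% higher and 36.2% lower). This split depended on the scaling, with 48 higher and 46 lower after the 75th percentile, 44 and 50 after quantile normalization and 44 and 49 after normexp. On 1 probe per gene, 11 of the 13 genes of groups 11 to 13 were higher at 1 dpf and 1 lower, with a median difference of 2.524. In groups 9 and 10, 1 of 8 genes was higher and 7 lower, with a median of -0.895. In groups 1 to 4, 9 of 14 were higher and 3 lower, and in groups 5 to 8, 3 of 12 were higher and 4 lower. The WT arrays at 1 dpf and at 5-somite lay on different slides scanned on different days. Stage, slide and scan day cannot be told apart in this comparison. Between 2 dpf and 1 dpf in WT, 40 probes were higher and 23 lower at 2 dpf, 54.8% against 56.6% of all probes (30.9% higher and 25.6% lower), and the split was 31 to 34 after quantile normalization and 35 to 33 after normexp. With the slide as a random block 39 were called, 24 higher and 15 lower. The WT arrays at 2 dpf and 1 dpf also lay on different slides, so stage and slide cannot be told apart.

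The hoxba cluster, the longest with hoxca, illustrates the course along 1 chromosome. At its front end hoxb1a, which marks a single segment of the hindbrain, had means of 1.82, 4.40, 9.92, 8.63 and 6.46 over the 5 WT stages in their order. It fell at both later steps, by 1.29 ± 0.05 at 1 dpf against 5-somite and by 2.17 ± 0.06 at 2 dpf against 1 dpf (SE, limma adjusted p = 3.61e-06 and 2.49e-06). hoxb3a and hoxb5a instead had their highest means at 2 dpf, 13.75 ± 0.14 and 12.15 ± 0.07. Among the trunk genes in the middle of the cluster, hoxb7a had its highest mean at 5-somite, 13.27 ± 0.06, and was 2.39 ± 0.04 lower at 1 dpf (adjusted p = 2.87e-07 in limma). hoxb9a and hoxb10a, at 13.12 ± 0.10 and 13.69 ± 0.08 at 5-somite, were lower at 1 dpf, with differences of -0.52 ± 0.06 and -1.87 ± 0.05.

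At the rear end of the same cluster, hoxb13a had means of 7.42, 6.47, 5.70, 10.15 and 10.51 over the 5 WT stages. Its level was thus lowest at 5-somite, the stage at which 4 of the 10 other genes of the cluster had their highest mean, and 4.45 ± 0.10 higher at 1 dpf (SE, limma adjusted p = 6.36e-07). Another of its 3 probes was well above background on no WT array at 1-2 cell. hoxb2a, hoxb4a, hoxb6a and hoxb8a had their highest means at 1 dpf (11.62 ± 0.04 for hoxb2a and 9.27 ± 0.06 for hoxb4a) or 2 dpf (10.87 ± 0.17 for hoxb6a and 11.45 ± 0.04 for hoxb8a).

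The genes at the ends of the other clusters also peaked at different stages. Among the group 1 genes, hoxb1b had means of 6.89, 6.04, 12.88, 11.57 and 10.67 over the 5 stages. hoxc1a had 2.26, 6.16, 10.19, 11.18 and 10.17. hoxb1a and hoxb1b therefore peaked at 5-somite and hoxc1a at 1 dpf. Among the group 13 genes, which pattern the tail and the distal fin, hoxa13a was not well above background on any WT array at 5-somite and reached 8.05 ± 0.06 at 1 dpf, at least 13.2-fold higher (limma adjusted p = 3.92e-07). hoxc13a had 7.08 ± 0.10 at 5-somite and hoxd13a had 5.97 ± 0.17, and they were 5.51 ± 0.06 and 3.05 ± 0.09 higher at 1 dpf (SE, adjusted p = 8.91e-08 and 1.94e-06 in limma). hoxc13b was 4.65 ± 0.90 higher at 1 dpf (adjusted p = 0.00399), where 1 of 3 arrays at 5-somite had been well above background. hoxa13b, like hoxb13a, had its highest mean at 2 dpf, 8.26 ± 0.04, against 7.27 ± 0.04 at 1 dpf and 6.97 ± 0.18 at 5-somite.

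The comparison of mutant with WT embryos at 1-2 cell asks which maternal transcripts differed. Of 55 Hox probes tested, 4 were higher and 15 lower on arrays labelled MZdnmt3aa-/-, 34.5% against 57.3% of all probes (background 28.5% higher and 28.8% lower). The probes that were lower stood for 7 genes and those that were higher for 3. On dnmt3bb.2-/- arrays 8 of 46 probes were higher (7 genes) and 10 lower (4 genes), 39.1% against 31.4% of all probes (15.1% higher and 16.3% lower). The share of Hox probes called was thus below that of all probes on the arrays labelled MZdnmt3aa-/- and above it on dnmt3bb.2-/- arrays. The excess on dnmt3bb.2-/- arrays rests on 18 calls, several of them probes of the same gene. Neither gap was tested.

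Of the maternal transcripts, hoxb1b, hoxb2a and hoxb7a were lower on both sets of arrays. Both sets were compared with the same WT arrays, so their agreement does not stand as separate results. hoxb7a, a trunk gene, measured 6.20, 5.54 and 7.29 on arrays labelled MZdnmt3aa-/-, 8.71, 8.25 and 8.96 on dnmt3bb.2-/- arrays and 9.84, 9.74 and 9.93 on WT arrays. Every mutant array was below every WT array, and the replicates labelled MZdnmt3aa-/- were spread more widely than the others. The differences to WT were -3.49 ± 0.45 (SE, limma adjusted p = 0.00136) and -1.20 ± 0.19 (adjusted p = 0.00516). hoxb2a measured 5.84, 5.27 and 5.69 on arrays labelled MZdnmt3aa-/-, 5.36, 5.41 and 6.03 on dnmt3bb.2-/- arrays and 8.26, 8.16 and 8.39 on WT arrays. The mutant sets were close to each other and well separated from WT, with differences of -2.67 ± 0.17 (adjusted p = 9.98e-05) and -2.67 ± 0.20 (adjusted p = 0.000382). hoxb1b measured 4.75, 4.58 and 3.68 on arrays labelled MZdnmt3aa-/-, 5.05, 5.62 and 4.94 on dnmt3bb.2-/- arrays and 6.87, 6.93 and 6.86 on WT arrays, again without overlap.

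In the hoxda cluster the maternal transcripts moved in both directions. hoxd9a, a posterior trunk gene, measured 8.94, 9.47 and 9.06 on arrays labelled MZdnmt3aa-/-, 9.46, 9.82 and 9.43 on dnmt3bb.2-/- arrays and 10.27, 10.45 and 10.49 on WT arrays. It was lower by 1.25 ± 0.16 and 0.83 ± 0.13 (SE, limma adjusted p = 0.00122 and 0.00478), and all 3 of its probes were called lower in both mutants. hoxd4a was well above background on 0 of 3 arrays labelled MZdnmt3aa-/- (3.16, 3.29 and 2.36), on all dnmt3bb.2-/- arrays (5.74, 5.19 and 6.24) and on all WT arrays (6.46, 6.64 and 6.53). It was at least 4.95-fold lower on the arrays labelled MZdnmt3aa-/- (adjusted p = 0.000167) and was not called on dnmt3bb.2-/- arrays. hoxd12a, by contrast, was higher, at 8.17, 8.34 and 8.32 on arrays labelled MZdnmt3aa-/- and 8.25, 8.73 and 8.18 on dnmt3bb.2-/- arrays, against 7.34, 7.04 and 7.49 on WT arrays. The differences were 0.99 ± 0.13 (adjusted p = 0.00155) and 1.1 ± 0.20 (adjusted p = 0.00743). In neither mutant was every probe of hoxd12a called higher. hoxd13a, its neighbour at the end of the cluster, was at 7.13, 7.17 and 6.86 on dnmt3bb.2-/- arrays, against 5.55, 5.58 and 6.05 on WT arrays (1.33 ± 0.17, adjusted p = 0.00229), while the arrays labelled MZdnmt3aa-/- (5.16, 5.30 and 5.49) gave no call.

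**Figure D2:**
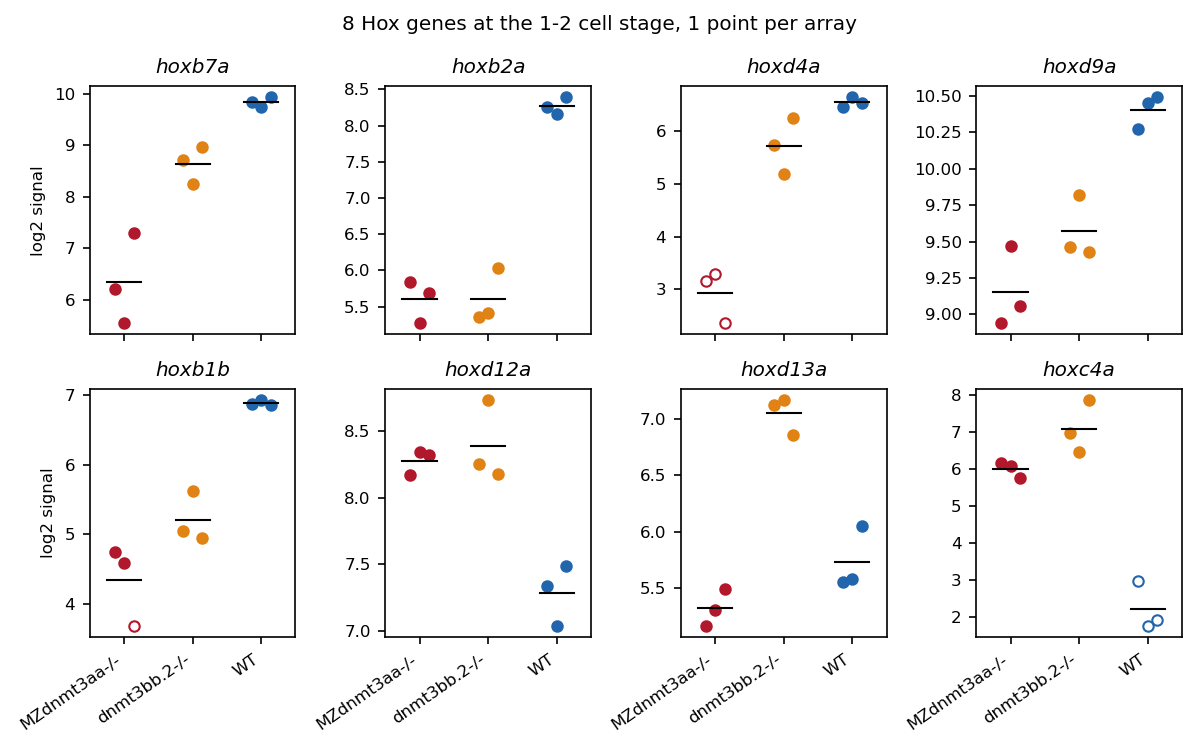
Log2 signal at 1-2 cell for 8 Hox genes, with 1 point per array and the group mean as a line; columns are arrays labelled MZdnmt3aa-/-, dnmt3bb.2-/- and WT, open points are not well above background, and each panel has its own axis. hoxc4a is shown by the probe that was called, on which the 6 mutant arrays lie between 5.77 and 7.87 and the WT arrays between 1.77 and 2.98.

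Some transcripts were measured in the mutants and not above background in WT. On one hoxc4a probe, which is not the brightest of the gene, the values were 6.17, 6.1 and 5.77 on arrays labelled MZdnmt3aa-/- and 6.97, 6.46 and 7.87 on dnmt3bb.2-/- arrays, against 2.98, 1.77 and 1.94 on WT arrays. It was at least 3.88-fold higher on the arrays labelled MZdnmt3aa-/- (limma adjusted p = 0.000401) and at least 8.25-fold higher on dnmt3bb.2-/- arrays (adjusted p = 0.00095). The 3 other probes of hoxc4a were not well above background on any mutant array at 1-2 cell. hoxc12a measured 5.74, 5.43 and 5.28 on arrays labelled MZdnmt3aa-/- and 4.47, 4.77 and 4.94 on dnmt3bb.2-/- arrays, against 2.72, 2.87 and 2.45 on WT arrays. All WT arrays of hoxc12a and 1 dnmt3bb.2-/- array were not well above background, and hoxc12a was at least 2.69-fold higher on the arrays labelled MZdnmt3aa-/- (adjusted p = 8.24e-05). hoxc6b was above background on dnmt3bb.2-/- arrays alone, at 5.12, 5.43 and 5.59, at least 2.5-fold higher than on WT arrays (3.22, 2.18 and 2.31, adjusted p = 0.00136). hoxa4a was also higher on dnmt3bb.2-/- arrays, at 8.17, 8.84 and 8.87, against 7.59, 7.58 and 7.48 on WT arrays (1.07 ± 0.21, adjusted p = 0.00945). This call of hoxa4a was kept under 9 of 17 alternatives, and in 1 of the 6 fits that left out an array. One probe of hoxa2b, not its brightest, was called higher on dnmt3bb.2-/- arrays too. Its difference ran from 0.323 to 2.577 over the alternatives, and 10 of 15 kept the call.

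Because the arrays labelled MZdnmt3aa-/- of 1-2 cell lay on a slide with no WT array, slide and genotype cannot be told apart in the first of these comparisons. For dnmt3bb.2-/- 1 mutant array shared a slide with the 3 WT arrays, and on that slide all 18 called probes differed in the same direction. This was fixed by the calls, since none of the 18 overlapped between mutant and WT arrays, and it does not test the slide. With the slide as a fixed term 6 of the 18 calls were made, and without WT replicate 1 or 2 the number was 7, without WT replicate 3 it was 9 and without dnmt3bb.2-/- replicate 3 it was 10. For dnmt3bb.2-/- the call of hoxb2a was made under 17 of 17 alternatives on its brighter probe and under 10 of 17 on its other probe, where it was lost with the slide or the replicate number as a term and without each array in turn but mutant replicate 2.

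At shield few Hox probes could be tested. On arrays labelled MZdnmt3aa-/- 1 of 32 probes was called, 3.12% against 12.3% of all probes (6.59% higher and 5.67% lower). The probe was that of hoxc1a, at 3.06, 2.46 and 3.43 and not well above background, against 5.82, 6.29 and 6.36 on WT arrays, at least 3.34-fold lower (limma adjusted p = 0.00151). The count was 0 without WT replicate 2 or 3, 2 without WT replicate 1, and 2, 2 and 3 without mutant replicates 1, 2 and 3. Of 30 probes on dnmt3bb.2-/- arrays, 2 were higher and 4 lower, 20% against 51.5% of all probes (27.4% higher and 24.1% lower). hoxc1a was there at 4.38, 2.87 and 3.2, also not well above background and at least 3.07-fold lower than on WT arrays (adjusted p = 0.00282).

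The remaining calls at shield on dnmt3bb.2-/- arrays concerned transcripts already present at 1-2 cell in WT or in the mutant, apart from hoxc6a, whose 2 probes disagree. hoxb2a measured 2.48, 2.5 and 2.53, not well above background, against 5.14, 4.90 and 4.90 on WT arrays, at least 1.36-fold lower (limma adjusted p = 1.09e-05). hoxb13a measured 5.11, 5.18 and 4.79, against 6.53, 6.51 and 6.38 on WT arrays (-1.45 ± 0.12, adjusted p = 0.00021). hoxa4a, higher as at 1-2 cell, measured 9.61, 9.69 and 9.47, against 8.15, 8.11 and 8.08 on WT arrays, a difference of 1.47 ± 0.07 (adjusted p = 3.11e-05). Its other probes were not well above background on any WT array at shield. On its probe called at 1-2 cell, hoxc4a was higher too, by 0.351 to 2.858 over the alternatives, and 11 of 17 kept the call. Without WT replicate 2 the count of 6 became 3, and with the slide as a fixed term it was 5.

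At 5-somite the Hox probes of the arrays labelled MZdnmt3aa-/- that were called were all lower. Of 110 tested, 0 were higher and 19 lower, 17.3% against 21.3% of all probes (9.82% higher and 11.5% lower). They stood for 14 genes, spread over paralogue groups 1 to 11 and over every cluster but hoxcb. The median Hox difference was -0.29, against -0.053 for all probes, and 21 of the 110 differences were positive. hoxc9a, a trunk gene, measured 9.38, 9.09 and 9.36 on one of its dimmer probes on arrays labelled MZdnmt3aa-/-, against 10.53, 10.56 and 10.52 on WT arrays (-1.26 ± 0.10, limma adjusted p = 0.000823). The brightest probe of hoxa5a measured 8.17, 8.18 and 8.10, against 8.88, 9.01 and 8.76 on WT arrays (-0.73 ± 0.09, adjusted p = 0.00267), and its other probe 6.80, 6.74 and 6.22, against 7.95, 7.86 and 7.79 on WT arrays (-1.28 ± 0.17, adjusted p = 0.00359). Neither set of values of hoxa5a overlapped with WT, as held for all 19 called probes.

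Of the other genes called lower on these arrays at 5-somite, hoxc3a measured 11.79, 11.63 and 11.93, against 12.61, 12.64 and 12.55 on WT arrays (-0.82 ± 0.10, limma adjusted p = 0.00253), on a probe that is not its brightest. hoxa11a measured 4.54, 4.44 and 4.93, with 1 of 3 arrays well above background, against 5.59, 5.76 and 5.43 on WT arrays (-0.96 ± 0.16, adjusted p = 0.00713). hoxa2b, hoxa4a, hoxb5b, hoxc1a, hoxc4a, hoxc6a and hoxd3a were lower by 0.51 to 0.73 on their brightest probes. Of 36 genes with at least 2 tested probes, 13 had a called probe and 1, hoxa5a, had all of them called. The posterior genes of groups 11 to 13 had a median difference of -0.501 on 1 probe per gene and 1 call.

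The counts for fewer arrays in this paragraph stand without the share of all probes called. The count of 19 rested on few arrays. It was 1 without WT replicate 1 or 2, 5 without WT replicate 3, 3 and 2 without replicates 1 and 2 labelled MZdnmt3aa-/-, and 41 without replicate 3 of that label. That replicate lay on another slide than the other 2, and its mean absolute deviation from its group's median over the 47 genes was 0.258, against 0.055 and 0.06 for the others. With the slide as a random block 0 probes were called. Of the listed probes of Hox-expressing tissues, 0 of 32 were higher and 10 lower, against 9.82% and 11.5% of all probes. Among the 10 were probes of phox2bb of hindbrain neurons (-2.19 ± 0.23 on the one that changed most, limma adjusted p = 0.00171) and msgn1 of the tailbud mesoderm (-2.0 ± 0.31, adjusted p = 0.0056, on 1 of its 4 probes). Of 78 probes of genes next to the clusters, 7 were higher and 6 lower. An index of progress between WT shield (0) and WT 5-somite (1) was taken over 8272 probes that change at least 4-fold. It was 0.952 ± 0.02 for the arrays labelled MZdnmt3aa-/- (SD, n = 3). On the same interval their shield arrays stood at 0.058 ± 0.033, and those of dnmt3bb.2-/- at 0.066 ± 0.013. Here and in later intervals the probes were chosen and scaled on WT arrays, so a value below 1 is by itself no measure of delay. The part of tissue composition and stage in the lower Hox values was not tested.

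On dnmt3bb.2-/- arrays at 5-somite, 6 of 110 probes were higher and 18 lower, 21.8% against 35.8% of all probes (16.9% higher and 18.9% lower). The probes that were lower included the end of the hoxda cluster. Those that were higher stood for 4 genes, hoxb8b, hoxc8a, hoxc5a and hoxd9a. hoxd12a, which patterns the distal fin and tail, was lower on all 4 of its probes, by 1.21, 0.75, 0.59 and 1.66 on probes 1 to 4 (limma adjusted p = 0.000207, 0.000458, 0.0015 and 0.00133). On probe 1 hoxd12a measured 7.52, 7.62 and 7.81, against 8.88, 8.90 and 8.78 on WT arrays, and on probe 4 it measured 5.83, 6.23 and 5.58, against 7.65, 7.70 and 7.27 on WT arrays. Its values did not overlap with WT on either probe, as held for all 24 called probes. One probe of hoxd13a measured 5.24, 5.14 and 5.57, against 6.62, 6.46 and 6.34 on WT arrays (-1.16 ± 0.14, adjusted p = 0.00111), while its brightest probe was not called. hoxd10a and hoxd11a were lower by 0.24 and 0.34 on their brightest probes.

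Among the higher genes on dnmt3bb.2-/- arrays at 5-somite, hoxb8b measured 10.66, 10.52 and 10.68, against 10.17, 10.15 and 10.07 on WT arrays (0.49 ± 0.07, limma adjusted p = 0.00186). hoxc8a measured 13.96, 13.93 and 13.89, against 13.48, 13.55 and 13.41 on WT arrays (0.45 ± 0.06, adjusted p = 0.00148). Both genes belong to paralogue group 8 and had 2 probes called higher, without overlap with WT, but hoxb8a of the same group had none. hoxc5a and hoxd9a were also higher, by 0.299 to 0.384 and 0.199 to 0.267 over the alternatives. Each of these calls was kept under 6 of 15 alternatives and in 0 of 6 fits that left out an array. In contrast hoxb9a, on a probe that is not its brightest, measured 10.96, 10.86 and 10.90, against 11.51, 11.53 and 11.43 on WT arrays (-0.59 ± 0.06, adjusted p = 0.000511). hoxc6b was lower by 0.56 ± 0.07 (adjusted p = 0.00118), the opposite of its direction at 1-2 cell. A probe of hoxa2b was called lower, with differences of -0.472 to -0.33 over the alternatives, of which 7 of 15 kept the call. Over groups 11 to 13 the median difference on 1 probe per gene was -0.519, and 0 of 11 genes were above WT.

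The dnmt3bb.2-/- and WT arrays at 5-somite lay on different slides, and slide and genotype cannot be told apart here. Leaving out 1 array gave between 11 and 19 called Hox probes, the fewest without WT replicate 2, 13 without WT replicate 1 or mutant replicate 2, 14 without mutant replicate 3 and 15 without WT replicate 3. Of the listed tissues, against 16.9% higher and 18.9% lower of all probes, the tailbud and paraxial mesoderm probes were 6 higher and 0 lower of 11, among them tbx16 (1.57 ± 0.11, limma adjusted p = 0.000208, on 1 of its 3 probes). Those of the hindbrain and spinal cord were 0 higher and 6 lower of 15, with all 3 probes of phox2bb lower by 2.06 to 2.15. The progress index was 0.953 ± 0.012 (SD, n = 3). Their part in the Hox differences was not tested.

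**Figure D3:**
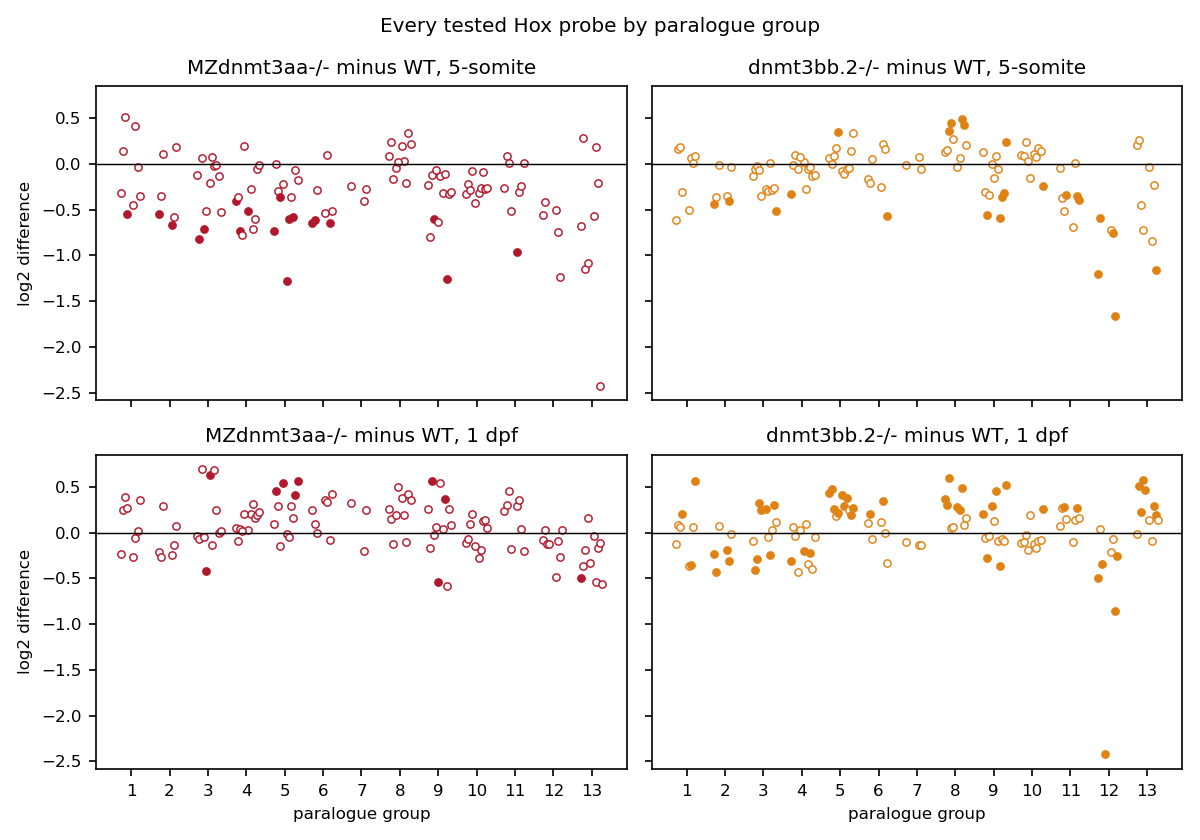
Log2 difference between mutant and WT arrays of every tested Hox probe against its paralogue group (spread sideways within a group), at 5-somite (top) and 1 dpf (bottom) for arrays labelled MZdnmt3aa-/- (left) and dnmt3bb.2-/- (right); filled points were called (adjusted p not above 0.01). All 19 called points lie below 0 at 5-somite on the arrays labelled MZdnmt3aa-/-, and group 12 holds the lowest called points on dnmt3bb.2-/- arrays at both stages.

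At 1 dpf 7 of 115 Hox probes were higher and 3 lower on arrays labelled MZdnmt3aa-/-, 8.7% against 20.8% of all probes (11% higher and 9.82% lower). hoxa3a, a gene of the hindbrain and pharyngeal arches, measured 10.27, 10.32 and 10.35, against 9.63, 9.65 and 9.78 on WT arrays (0.63 ± 0.07, limma adjusted p = 0.00178). hoxc5a was higher on all 3 of its probes, with 9.78, 9.79 and 9.65 on the one that changed most, against 9.17, 9.16 and 9.18 on WT arrays (0.57 ± 0.06, adjusted p = 0.00205). hoxb9a was higher on 2 of its probes, by 0.57 ± 0.06 on one of them (11.42, 11.46 and 11.48, against 10.84, 10.92 and 10.90 on WT arrays, adjusted p = 0.00151), and hoxb5a by 0.45 ± 0.07. Lower values were measured for a probe of hoxd9a (10.32, 10.50 and 10.47, against 10.97, 10.96 and 10.96 on WT arrays) and for hoxa13b (6.61, 6.87 and 6.85, against 7.30, 7.29 and 7.23 on WT arrays, -0.49 ± 0.09, adjusted p = 0.00991).

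The counts given next for fewer arrays or another background correction stand without the share of all probes called. These 10 calls were unstable. They became 0 without WT replicate 1 or 2, 1 without WT replicate 3, 6 and 2 without replicates 1 and 2 labelled MZdnmt3aa-/-, and 29 without replicate 3 of that label, and normexp background correction gave 17 higher and 1 lower. The progress index between WT 5-somite and WT 1 dpf was 0.894, 0.903 and 1.026 on the 3 arrays labelled MZdnmt3aa-/-, taken over 6094 probes, so replicate 3 stood apart from the others in this index, and its part in the result was not tested. Over the 115 Hox probes well above background on all 6 arrays, the median SD within the group was 0.129 on these arrays and 0.04 on WT arrays. The group lay on 1 slide that held no WT array, so slide and genotype cannot be told apart. mafba, a hindbrain regulator of Hox transcription, was higher on 1 of its probes by 1.1 ± 0.08 (limma adjusted p = 0.000539), and 3 of 28 probes on the list of Hox regulators were higher and 1 lower, against 11% and 9.82% of all probes.

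The 1 dpf comparison of dnmt3bb.2-/- with WT gave the most Hox calls of the mutant comparisons. Of 115 probes 36 were higher (18 genes) and 18 lower (8 genes), 47% against 46.9% of all probes (22.8% higher and 24.1% lower), so the share of Hox probes called was that of the array as a whole. The differences of the called probes ran from -2.43 on a probe of hoxd12a to 0.60 on a probe of hoxb8b, and 53 of the 54 probes were well above background on all 6 arrays. The genes that were higher came from paralogue groups 1, 3, 5, 6, 8, 9, 10, 11 and 13, and those that were lower from groups 1, 2, 3, 4, 9 and 12. Of 39 genes with at least 2 tested probes, 23 had a called probe and 13 had all of them called.

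hoxd12a was again lower on its 4 probes at 1 dpf, by 0.86, 0.34, 0.25 and 2.43 on probes 1 to 4. On probe 1 it measured 8.92, 8.90 and 8.80, against 9.71, 9.77 and 9.72 on WT arrays (-0.86 ± 0.04, limma adjusted p = 4.22e-05). On probe 4 it measured 4.0, 4.79 and 5.22, the first not well above background, against 7.06, 7.18 and 7.04 on WT arrays (-2.43 ± 0.31, adjusted p = 0.00127). The 4 probes of hoxd12a therefore agreed in direction at both stages and differed in size by 1.07 at 5-somite and 2.17 at 1 dpf. On the same probe 4 the arrays labelled MZdnmt3aa-/- measured 7.08, 7.11 and 6.73 at 1 dpf and overlapped with WT.

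**Figure D4:**
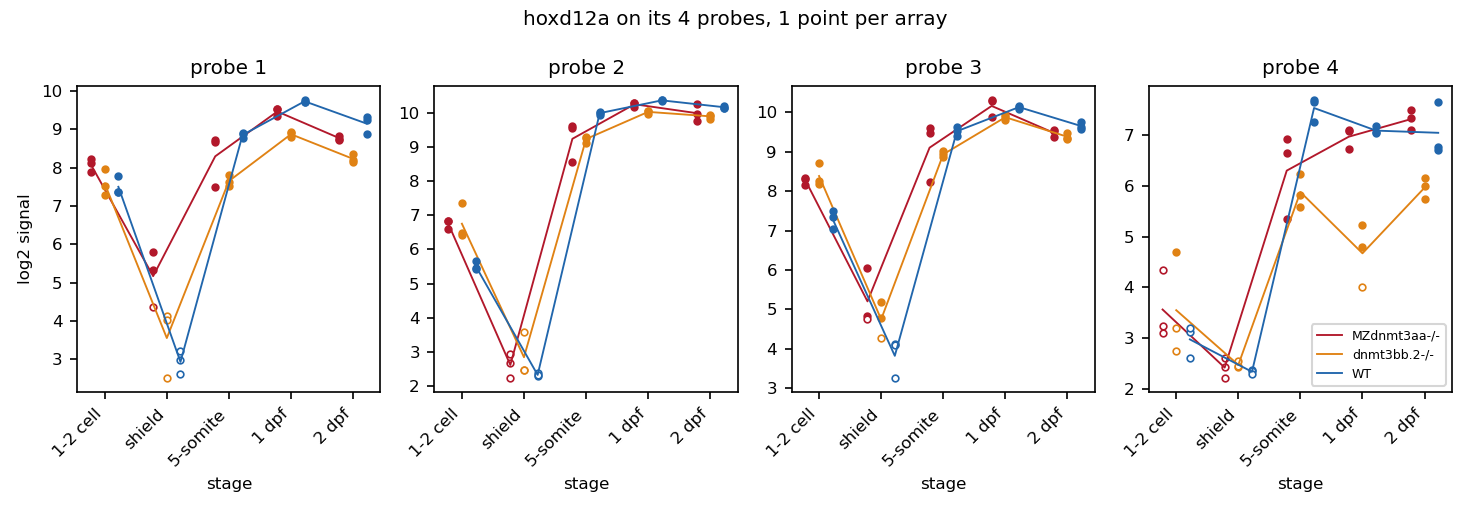
Log2 signal of hoxd12a on its 4 probes over the 5 stages, with 1 point per array, lines through group means, and open points for arrays not well above background; arrays labelled MZdnmt3aa-/- are red, dnmt3bb.2-/- orange and WT blue. On probe 4 at 1 dpf the dnmt3bb.2-/- arrays lie between 4.0 and 5.22 and the WT arrays between 7.04 and 7.18.

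Among the genes that were higher on dnmt3bb.2-/- arrays at 1 dpf, hoxb8b measured 10.91, 10.89 and 10.87, against 10.44, 10.36 and 10.41 on WT arrays (0.49 ± 0.04, limma adjusted p = 0.000146), and its other probe was higher by 0.60 ± 0.04. hoxd9a measured 12.15, 12.06 and 12.09, against 11.58, 11.56 and 11.57 on WT arrays (0.53 ± 0.03, adjusted p = 0.000102). hoxc13b, a posterior gene not above background on all WT arrays before this stage, measured 8.70, 8.81 and 8.67, against 8.18, 8.20 and 8.07 on WT arrays (0.57 ± 0.06, adjusted p = 0.000444). In none of these genes did the mutant and WT arrays overlap, as held for all 54 called probes. hoxb5a was higher by 0.47 ± 0.04 and hoxd13a by 0.47 ± 0.06, while hoxc12a was lower by 0.50 ± 0.10, hoxb9a by 0.37 ± 0.04 on a probe that is not its brightest, and all 4 tested probes of hoxa2b by 0.19 to 0.43. One of these hoxa2b probes had been called higher at 1-2 cell. hoxc5a was higher, by 0.189 to 0.261 over the alternatives. A probe of hoxc1a, other than the one that was lower at shield, was also higher, by 0.448 to 0.635 over the alternatives.

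At 1 dpf 1 dnmt3bb.2-/- array shared a slide with the 3 WT arrays, and there all 54 called probes differed in the same direction. This was fixed by the calls, since none of the 54 overlapped between mutant and WT arrays, and it does not test the slide. With the slide as a fixed term 25 probes were called, 19 higher and 6 lower, and leaving out 1 array gave between 30 (without WT replicate 2) and 42, with 33 without WT replicate 1. Of the listed tissues, against 22.8% higher and 24.1% lower of all probes, the hindbrain and spinal cord probes were 0 higher and 6 lower of 15 and those of tailbud and paraxial mesoderm 5 higher and 1 lower of 11. and2 of the fin fold was higher on 2 of its 3 probes, by 1.08 and 1.74. Their part in the Hox differences was not tested.

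At 2 dpf little remained called. On arrays labelled MZdnmt3aa-/- 0 of 115 Hox probes were higher and 3 lower, 2.61% against 12.6% of all probes (5.7% higher and 6.9% lower). hoxc12a was lower on both of its probes, at 7.18, 7.42 and 7.25 on the brighter one, against 7.92, 7.80 and 7.96 on WT arrays (-0.61 ± 0.10, limma adjusted p = 0.00864). hoxa13b measured 7.50, 7.61 and 7.77, against 8.31, 8.23 and 8.25 on WT arrays (-0.63 ± 0.10, adjusted p = 0.00749). It was lower at 1 dpf as well, and its other probe was called lower at 1-2 cell (adjusted p = 0.00242), where 0 of 3 mutant and 2 of 3 WT arrays were well above background, so that no size is given. The count was 0 without any 1 of the 3 WT arrays or of replicates 1 and 2 labelled MZdnmt3aa-/-, and 5 without replicate 3 of that label. Quantile normalization gave 2 higher and 3 lower, and normexp 4 higher and 5 lower. On 1 probe per gene the median difference at 2 dpf was 0.169 in groups 1 to 4 and -0.216 in groups 11 to 13, against -0.262 and -0.194 in the same groups on dnmt3bb.2-/- arrays.

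On dnmt3bb.2-/- arrays at 2 dpf 0 of 115 Hox probes were higher and 4 lower, 3.48% against 14.9% of all probes (6.31% higher and 8.61% lower). The median Hox difference was -0.213 against -0.055, and 12 of the 115 were positive. hoxc12a measured 6.94, 6.92 and 7.08, against 7.92, 7.80 and 7.96 on WT arrays (-0.91 ± 0.10, limma adjusted p = 0.00138). hoxd12a on probe 1 measured 8.20, 8.14 and 8.35, against 9.33, 9.25 and 8.87 on WT arrays (-0.92 ± 0.15, adjusted p = 0.00582). Probes of hoxb9a (10.11, 9.89 and 9.67, against 10.62, 10.63 and 10.61 on WT arrays) and of hoxa4a (12.24, 12.15 and 12.11, against 12.57, 12.66 and 12.73 on WT arrays) were also lower, by 0.73 ± 0.13 and 0.49 ± 0.09. Thus hoxd12a, hoxb9a and hoxa4a were lower on dnmt3bb.2-/- arrays at 5-somite, 1 dpf and 2 dpf, each on at least 1 probe. For hoxa4a this was not the probe that was higher at 1-2 cell and shield. At 2 dpf the calls of hoxd12a, hoxb9a and hoxa4a were kept under 9, 6 and 5 of 17 alternatives. They held in 1, 1 and 0 of the 6 fits that left out an array. With all 45 arrays in 1 fit, hoxb9a and hoxa4a lost the call at each of these stages and hoxd12a at 2 dpf. At 5-somite and 2 dpf the brightest probes of hoxb9a and hoxa4a were not called lower. The count of 4 called Hox probes was 1 with the slide as a fixed term, 1 without WT replicate 1 or 2 or mutant replicate 2 or 3, and 2 without mutant replicate 1. The progress index between WT 1 dpf and WT 2 dpf was 0.90 ± 0.023 on dnmt3bb.2-/- arrays (SD, n = 3) and 0.823, 0.85 and 1.02 on the 3 arrays labelled MZdnmt3aa-/-, of which replicate 3 lay above WT and the others below, and its part in these results was not tested.

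**Figure D5:**
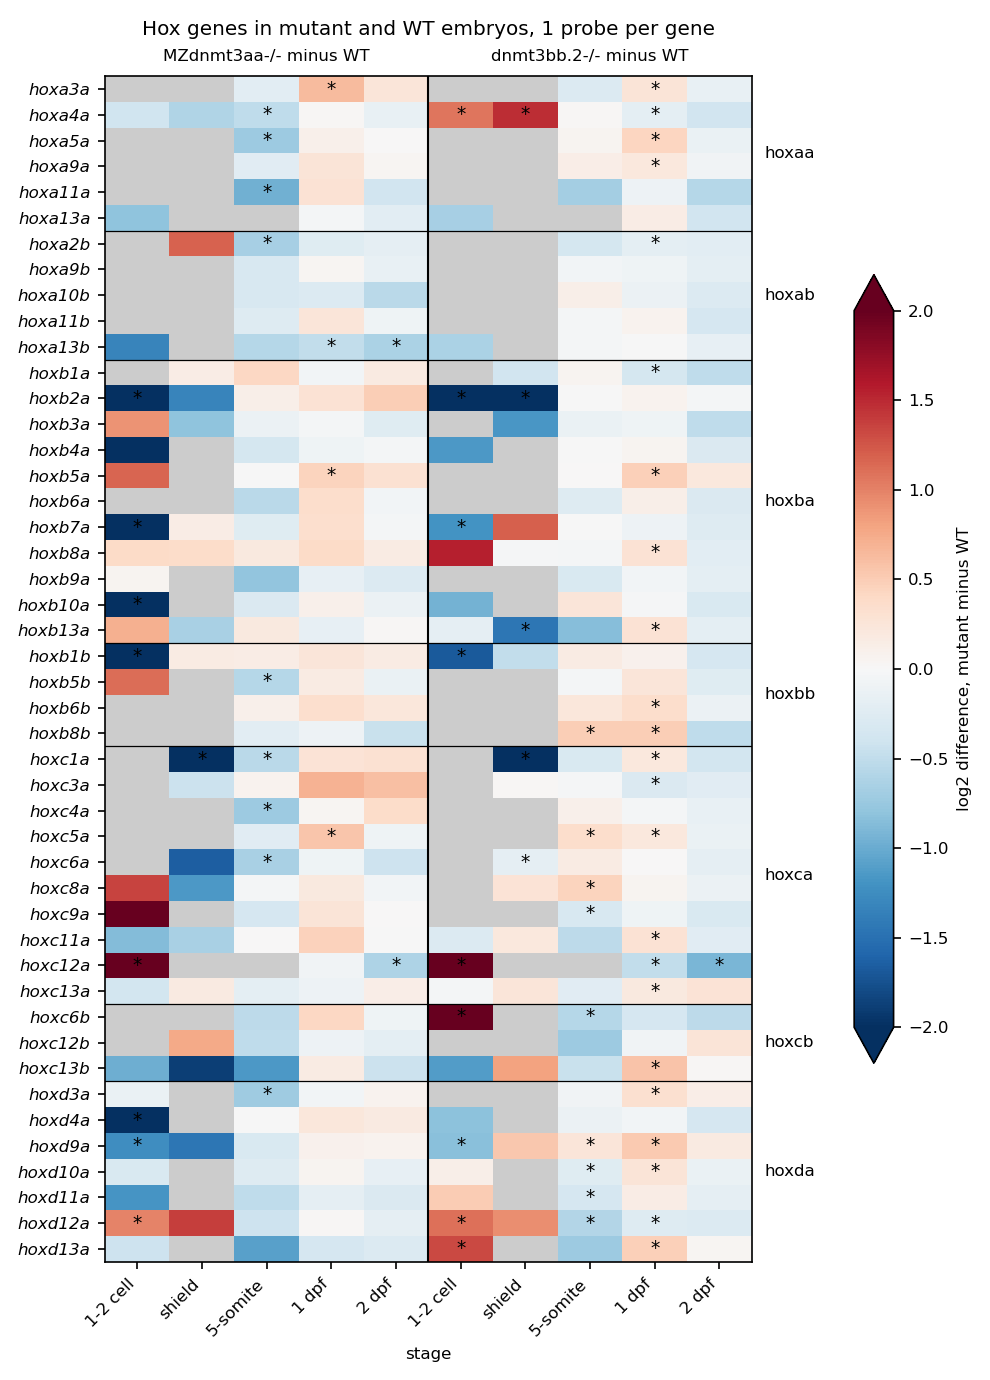
Log2 difference between mutant and WT arrays for 46 of the 47 Hox genes, 1 probe each, in rows by cluster, with the 5 stages in columns for arrays labelled MZdnmt3aa-/- (left) and dnmt3bb.2-/- (right). Red is higher and blue lower than WT, colours end at a difference of 2 either way, grey was not tested because no array was well above background, and an asterisk marks an adjusted p of at most 0.01.

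The change of the genotype effect between 5-somite, 1 dpf and 2 dpf was tested itself, with the interaction F test in limma. It was called for 24 of 115 Hox probes, 20.9% against 16.6% of all probes, for the arrays labelled MZdnmt3aa-/-, and for 38 of 115, 33% against 28.5%, for dnmt3bb.2-/-. On the arrays labelled MZdnmt3aa-/-, the probe of hoxa5a that differed from WT by -1.28 at 5-somite differed by -0.01 at 1 dpf, and its limma interaction had an adjusted p of 0.00023. For dnmt3bb.2-/- the probe of hoxd13a that fell at 5-somite had an adjusted p of 0.000152. Both probes had been named for their calls at 5-somite on the same arrays. With the slide as a random block the count for the arrays labelled MZdnmt3aa-/- was 1. The WT arrays of 5-somite were scanned on another day than those of 1 and 2 dpf. All arrays labelled MZdnmt3aa-/- were scanned on a day of their own, so for them a stage-dependent effect, scan day and slide cannot be told apart. The dnmt3bb.2-/- arrays shared the scan day of WT at each of these stages, but not the slide at 5-somite.

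The Hox proteins bind DNA with TALE homeodomain partners of the Pbx, Meis and Pknox families, of which 12 of 14 listed genes were on the array. On dnmt3bb.2-/- arrays 0 of 35 tested TALE probes were higher and 11 lower at 5-somite, 9 were higher and 8 lower at 1 dpf, and 0 were higher and 4 lower at 2 dpf. Of all probes 16.9% were higher and 18.9% lower at 5-somite, 22.8% and 24.1% at 1 dpf, and 6.31% and 8.61% at 2 dpf. The TALE share at 1 dpf, 17 of 35 probes, was thus near that of all probes. pbx1b was lower at all 5 stages on at least 1 of its 2 probes. On its dimmer probe it was at 6.26 ± 0.18 on dnmt3bb.2-/- arrays and 7.73 ± 0.11 on WT arrays at 5-somite (SD, n = 3 each), a difference of -1.47 ± 0.11 (SE, limma adjusted p = 0.000229). The difference was -1.23 ± 0.06 at 1 dpf and -1.21 ± 0.21 at 2 dpf (adjusted p = 4.59e-05 and 0.00821). On its brighter probe it was 6.72 ± 0.53 on dnmt3bb.2-/- arrays and 11.07 ± 0.05 on WT arrays at 1-2 cell. One of the 4 probes of meis2b was lower at 5-somite, 1 dpf and 2 dpf, with differences of -0.80, -0.89 and -1.27. On arrays labelled MZdnmt3aa-/- 0 of 35 TALE probes were higher and 1 lower at 5-somite, against 21.3% of all probes called. At 1 dpf 2 of 35 were higher and 1 lower, against 20.8%, and at 2 dpf 1 was higher and 1 lower, against 12.6%. Among these, 1 probe of meis3 was higher by 0.90 ± 0.08 at 1 dpf and 0.91 ± 0.10 at 2 dpf (limma adjusted p = 0.0011 and 0.00244).

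Of the listed regulators of Hox transcription, which set retinoic acid levels, read them or act upstream in the hindbrain and tail, 7 of 27 probes were higher and 4 lower on dnmt3bb.2-/- arrays at 5-somite, against 35.8% of all probes called, and 8 of 28 were higher and 3 lower at 1 dpf, against 46.9%. cyp26a1, which degrades retinoic acid, was higher at 5-somite by 0.59 ± 0.08 (limma adjusted p = 0.00181), and the retinoic acid receptor gene rarga was higher at 1 dpf by 0.94 ± 0.03 (adjusted p = 1.49e-05). On arrays labelled MZdnmt3aa-/- 2 of 27 of these probes were higher and 1 lower at 5-somite, against 21.3% of all probes called, and the one lower was that of gdf11, which acts at the trunk-to-tail transition in mice, with a difference of -0.81 ± 0.10 (adjusted p = 0.00273). Of the genes next to the Hox clusters, 14 of 76 probes were higher and 11 lower on dnmt3bb.2-/- arrays at 5-somite, and 23 of 80 were higher and 16 lower at 1 dpf, against the same 35.8% and 46.9% of all probes. At 1-2 cell 30 of 78 neighbour probes were higher and 23 lower on arrays labelled MZdnmt3aa-/-, against 57.3% of all probes, and 13 of 72 were higher and 11 lower on dnmt3bb.2-/- arrays, against 31.4%.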

How the data were processed

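The authors deposited the Feature Extraction 12.0.3.1 output of each array. Its processed signal is a linear intensity, background-subtracted within the array, and the deposited normalized values are these intensities times 1 factor per array. Control spots and outlier spots were left out, spots of a probe were averaged, and signals were scaled here to a mean of 2500 after trimming 2% at each end and converted to log2 (the deposited values are linear). Tested probes were well above background on 1 or more of the 6 arrays compared. limma 3.58.1 (R 4.3.3) was fitted to each comparison alone, with Benjamini-Hochberg adjustment. It was tested on simulated data. Figures used Python 3.11.15 and matplotlib 3.10.9. 26421 probes were named through the RefSeq gene table. The authors' deposited flags of 0 or 1 mark probes well above background.

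The members and lists were chosen with earlier results of these data known. Named were up to 4 Hox genes per mutant and stage with the largest called difference, genes called alike at 2 or more stages in a mutant, the hoxba cluster, genes detected at WT 1-2 cell, and paralogue groups 1 and 13. The lists were TALE cofactors, Hox regulators, Hox-expressing tissues, stage markers and the genes nearest each cluster. Alternatives covered scaling, background, filter, threshold, all 45 arrays in 1 fit, the replicate number or slide as a block, and leaving out each array. One paralogue group 1 gene enters the counts and is not reported here by itself. No probe or gene sequence was used here. As replicates are separate pools of embryos, p-values measure the spread between pools.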

Additional observations from a re-analysis of the deposited data

Results flagged for a closer look

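The effect of the genotype differed between 5-somite, 1 dpf and 2 dpf by the interaction F test in limma for 24 Hox probes on the arrays labelled MZdnmt3aa-/- and for 38 on dnmt3bb.2-/- arrays. These were 20.9% of the tested Hox probes against 16.6% of all probes, and 33% against 28.5%. The count of 24 was 14 and 13 without WT 5-somite replicates 1 and 2, 15 without 5-somite replicate 2 labelled MZdnmt3aa-/-, and 37 without 5-somite replicate 3 of that label. The count of 38 was 25 without WT 1 dpf replicate 2. For the arrays labelled MZdnmt3aa-/- a stage-dependent effect, scan day and slide cannot be told apart, and for dnmt3bb.2-/- slide and genotype cannot at 5-somite.

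Listed here and for dnmt3bb.2-/- are only called probes that were already named for their difference from WT at these stages. The same arrays served both choices, so the lists are no separate support. Other Hox probes were called too, among them hoxc4a and hoxb6a on the arrays labelled MZdnmt3aa-/- (limma adjusted p = 0.000551 and 0.000814). On these arrays the adjusted p of this limma test was 0.00023 for hoxa5a, 0.000665 for hoxa3a, 0.00227 for hoxc3a, 0.00403 for hoxa11a, 0.0044 for hoxc12a, 0.00552 for hoxc5a, 0.00791 for hoxb9a and 0.00953 for hoxc1a. Of the listed genes, hoxa5a, hoxa11a, hoxc1a and hoxc3a were lower than WT at 5-somite, hoxa3a, hoxb9a and hoxc5a were higher at 1 dpf, and hoxc12a was lower at 2 dpf.

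On dnmt3bb.2-/- arrays the adjusted p of the same limma test was 3.08e-06 and 6.01e-06 for the 2 probes of hoxb8b, which was higher than WT at 5-somite and 1 dpf. At 2 dpf the 4 genes of its cluster, hoxbb, differed from WT by -0.51 to -0.11 on 1 probe per gene, and 0 were called. The adjusted p of this limma test was 0.000152 and 0.00216 for the 2 probes of hoxd13a, 0.000658 for hoxc12a and 0.00136 for hoxc5a. For hoxd13a the probe with the smaller p was lower than WT at 5-somite and the other was higher at 1 dpf.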

How the results depend on the processing

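Of 152 named results under 2401 alternative values, 2053 kept their direction and their side of the threshold, 313 kept the direction but lost the call, 24 gained it and 11 reversed. The deposited normalized values, which are the same intensities times 1 factor per array, gave the same calls as the scaled signals for all 152. An adjusted p of at most 0.05 cannot lose a call. With all 45 arrays in 1 fit 46 of 152 lost the call, and with a replicate block 38 of 152. The 152 pool steps between WT stages with mutant comparisons, so these totals do not give the stability of the mutant calls. Counts below are called Hox probes. These counts, and those above for other settings or fewer arrays, stand without the share of all probes called. They do not show whether a change was particular to the Hox probes. On the arrays labelled MZdnmt3aa-/- against WT, fitting all 45 arrays together gave 29 calls at 1-2 cell, 14 at shield, 11 at 5-somite and 2 at 1 dpf. From shield to 2 dpf an adjusted p of at most 0.05 gave 6, 46, 39 and 20. Quantile normalization gave 2 at shield and 5 at 2 dpf, normexp 18 at 1 dpf and 9 at 2 dpf, no filter on dim probes 3 at shield and 1 at 2 dpf, a strict filter 6 at 2 dpf, and the slide as a random block 2 at shield and 0 at 5-somite.

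For dnmt3bb.2-/- against WT, an adjusted p of at most 0.05 gave 10 at shield, 43 at 5-somite and 23 at 2 dpf, and all 45 arrays 6 at 5-somite and 2 at 1 dpf. At 2 dpf the 75th percentile gave 2, no filter 2, a strict filter 7 and the slide as a random block 2. With the slide as a fixed term 6 were called at 1-2 cell, 25 at 1 dpf and 1 at 2 dpf. In WT, no filter gave 61 between shield and 1-2 cell, all 45 arrays 57 between 1 dpf and 5-somite and 21 between 2 dpf and 1 dpf, and the slide as a random block 39 in the last. For the interaction an adjusted p of at most 0.05 gave 42 and 68 and all 45 arrays 9 and 4 for the arrays labelled MZdnmt3aa-/- and for dnmt3bb.2-/-, and the slide as a random block 1 for the arrays labelled MZdnmt3aa-/-.

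Leaving out 1 array at a time gave, from 1-2 cell to 2 dpf, 15 to 24, 0 to 3, 1 to 41, 0 to 29 and 0 to 5 calls on the arrays labelled MZdnmt3aa-/-, and 7 to 18, 3 to 5, 11 to 19, 30 to 42 and 1 to 4 on dnmt3bb.2-/- arrays. In WT it gave 30 to 34, 107 to 107, 83 to 92 and 46 to 70 over the 4 steps, and for the interaction 13 to 37 and 25 to 49.

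Replicate numbers were not taken as pairs in the main fits. The correlations of same-numbered deviations were 0.251, 0.12 and 0.099 for the arrays labelled MZdnmt3aa-/- and WT at 1-2 cell. In the other comparisons they lay between -0.064 and 0.074. Weak correlations cannot show that the samples were unpaired. With a replicate block, the counts were 16, 0, 0, 0 and 0 over the stages on the arrays labelled MZdnmt3aa-/- and 5, 6, 9, 25 and 0 on dnmt3bb.2-/- arrays, and 18 and 33 for the interaction. The cause of these changes was not tested.

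All reversals concerned WT stages. hoxc13b at shield against 1-2 cell, 0.70 under the settings of the report, was -0.11 with normexp, and -0.15 to 1.35 when leaving out 1 array, the lowest without WT 1-2 cell replicate 2. hoxa13b at 1 dpf against 5-somite, 0.295 there, was -0.11 with quantile normalization and -0.02 with normexp, and hoxd10a, called higher at 0.20, was -0.023 and -0.002. At 2 dpf against 1 dpf hoxd10a was -0.029 and -0.036 under the same settings, and hoxa4a was 0.016 with normexp and 0.009 and 0.018 without WT 2 dpf replicates 1 and 3, and -0.06 without replicate 2. With 3 arrays a group the precision is limited, and differences in genes not well above background are bounds.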
